A study of Mus musculus with 4 samples.

Results

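Mitosis genes encode the machinery that condenses the chromosomes, builds the spindle, attaches and parts the sister chromatids and divides the cell. The 45 genes described here were taken by symbol from the table of 48795 genes, as a list of mitotic cyclins and kinases, checkpoint, kinetochore, spindle, condensin and cytokinesis genes. All 45 were found and all 45 were tested. The study sequenced RNA from the telencephalon, the embryonic forebrain, of C57BL/6 mice at embryonic day 14. The 2 control libraries carried a floxed Ctcf gene without Cre, and the 2 Ctcf-null libraries carried floxed Ctcf together with NestinCre, a Cre recombinase driven by Nestin sequences in neural progenitors and their descendants. Blood, vessel, meningeal and microglial cells of the dissected tissue are not of that lineage. Cre was present only in the Ctcf-null libraries, so its own effect and that of losing Ctcf cannot be told apart. Whether a library came from a single embryo or from a pool, and whether embryos were separate, the labels do not say, and the p-values therefore cover no more than the spread among these 4 samples, which may be technical.

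In the embryonic forebrain, radial glia divide at the surface of the ventricle and intermediate progenitors divide further out, while neurons have left the cell cycle. Transcripts of mitosis genes accumulate in G2 and M phase and are low in neurons, so in bulk tissue their level follows both the number of dividing cells and the RNA per dividing cell, which cannot be told apart here. Entry into mitosis is driven by Cdk1 with cyclins A and B. The spindle checkpoint holds the anaphase-promoting complex with its activator Cdc20 until all kinetochores are attached, after which cyclin B is destroyed and the cell divides. Loss of several of these genes in mouse or man gives a small brain. CTCF, the protein removed, binds DNA and anchors chromatin loops together with cohesin.

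The recovered depth was 25519331 to 43812558 reads per library. The Ctcf transcript had 437 and 1133 normalized counts in controls 1 and 2 against 38.9 and 62.0 in Ctcf-null 1 and 2, which is 14.1-fold lower within pairs (log2 fold change -3.81, SE 0.16, limma adjusted p = 3.3e-11). Hoxb4, a gene of the hindbrain and spinal cord, was at 2.67 to 4.95 normalized counts. Libraries of different pairs stood apart. On log2 values of the 21882 genes tested (genes are no independent replicates), the correlation r was 0.987 and 0.984 within pairs and 0.884 to 0.901 across them. Fold changes below are therefore taken within pairs, on log2(normalized count + 1), in a limma fit with the pair as a term. Its p-values rest on how far the genotype differences of the 2 pairs disagree, with spread borrowed from all genes. They leave out the spread between the pairs. A gene is said to have risen or fallen where its Benjamini-Hochberg adjusted p in that fit was under 0.05 on the authors' deposited scaling.

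Mitosis genes were slightly lower in Ctcf-null telencephalon. Of the 45 genes, 23 fell and 0 rose, and the other 22 did not pass. Over all genes tested, 9.94% fell and 3.62% rose. The genes that fell were 15.6% to 25.4% lower, with log2 fold changes of -0.24 to -0.42 and SE of 0.06 to 0.10 (limma adjusted p = 4.9e-04 to 0.039, 2 libraries per genotype). The median log2 fold change of the 45 genes was -0.27, against -0.07 for all 21882 genes tested. It was -0.11 for the 8481 tested genes whose mean level lay between those of the lowest and the highest mitosis gene (323 and 9073 normalized counts), of which 17.3% fell. The smallest adjusted p were those of Ccnb1, cyclin B1, Spc25, of the kinetochore's microtubule-binding Ndc80 complex, Ube2c, the ubiquitin-conjugating enzyme of the anaphase-promoting complex, and Cdc20, the activator of that complex.

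The number of genes past the threshold depended on the scaling between libraries. With TMM factors in place of the authors' size factors 12 of the 45 passed, all lower, where 5.69% of all genes passed lower and 4.14% higher. With upper-quartile factors 4 passed (4.24% lower and 5.79% higher over all genes). On the recovered reads 13 passed in edgeR (6.5% and 4.47%) and 4 in DESeq2 (2.44% and 1.34%). These fits had the pair as a term, and in each 0 of the 45 genes passed as higher. Ccnb1, Spc25, Ube2c and Cdc20 passed in all 5 of these fits. From the deposited scaling to upper-quartile factors the median of all genes moved by 0.11, from -0.07 to 0.04, and the median of the mitosis genes from -0.27 to -0.17. The mitosis genes' median lay 0.21 below that of all genes in each of the 5 fits, and 41 of the 45 genes lay below it in each. On log2 values, a factor per library shifts all genes by nearly the same amount. Neither value could therefore change much with the scaling, and their steadiness is no separate support. With a filter of 100, which changes the genes compared, the distance was 0.17 and 38 genes lay below the median of all. Of all calls, 26.7% were rises with the deposited scaling, 42.1% with TMM and 57.7% with upper-quartile factors. Without the pair as a term, limma called 0 of the 45 genes and 0 of all genes (0.0%), with an unadjusted p under 0.05 for 0 and 170 of them, and edgeR also called 0 and 0, with 0 and 173. The median SE of the mitosis genes was 0.44 in that limma fit and 0.08 with the pairs.

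**Figure D1:**
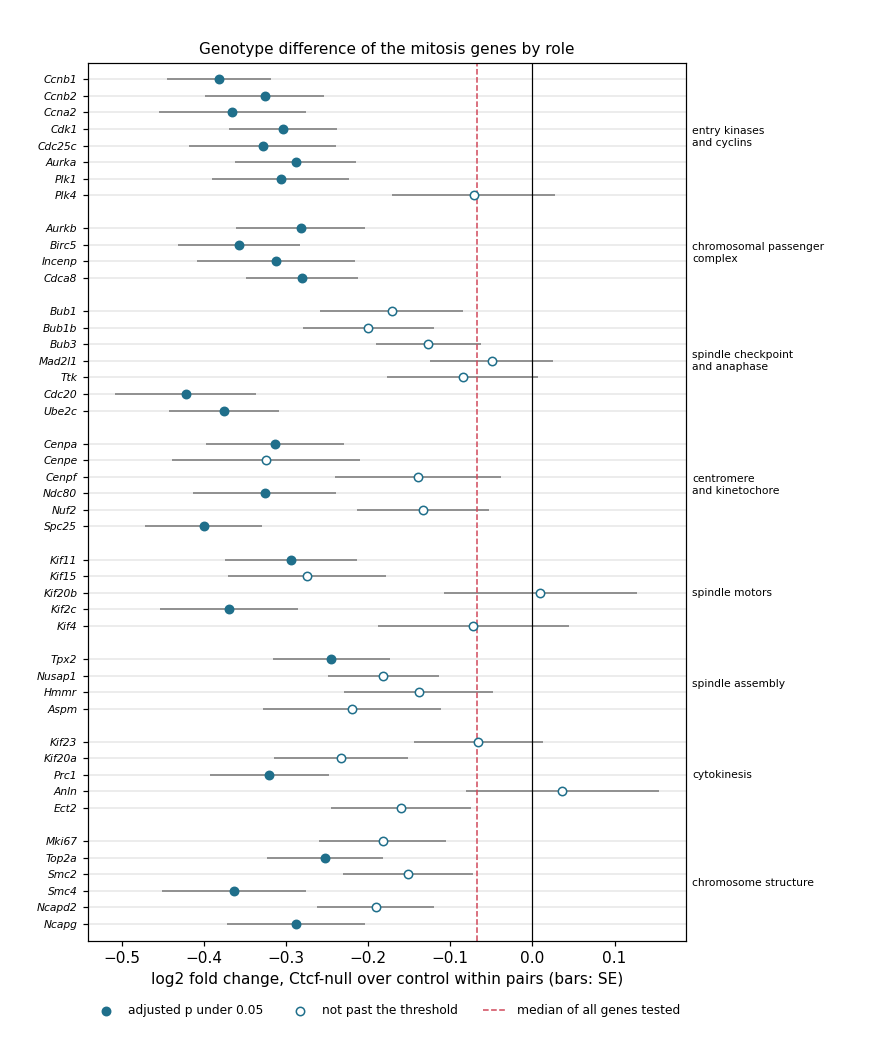
Log2 fold change of each mitosis gene, Ctcf-null over control within pairs, with bars for the SE, grouped by role. Filled points had a limma adjusted p under 0.05 (23 of 45), and 43 of the 45 points lie below 0 on the deposited scaling, 41 of them below the dashed median of all genes tested.

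**Figure D2:**
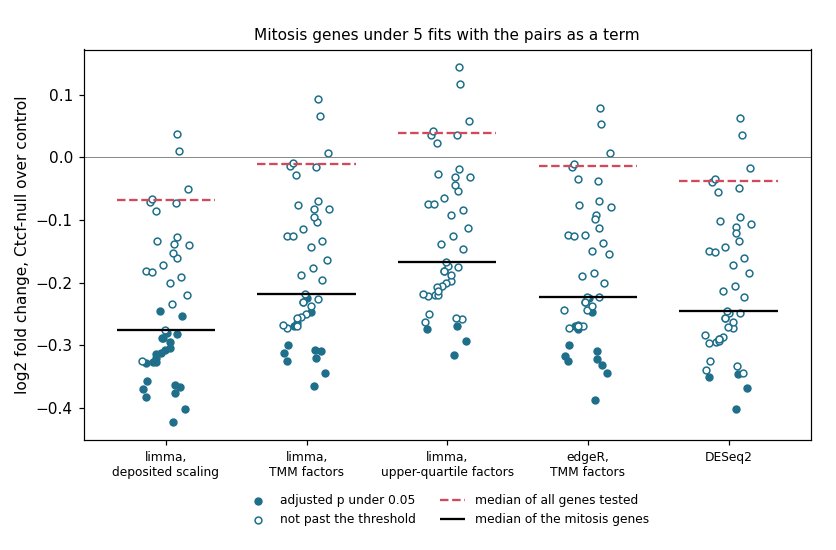
Log2 fold changes of the 45 mitosis genes under 5 fits that all have the pairs as a term; the sideways scatter has no meaning. The solid line (mitosis genes) stays 0.21 below the dashed line (all genes tested) while the filled points, past an adjusted p of 0.05, number 23, 12, 4, 13 and 4 from left to right. A change of scaling shifts both lines nearly alike, so their distance could hardly change.

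Mitosis genes are known for a shared promoter layout, a cell cycle homology region (CHR, TTTGAA or TTTAAA) that is bound by the MuvB complex, and CCAAT boxes that are bound by NF-Y a short way upstream. RefSeq promoter windows on GRCm38.p6, 250 bases before to 50 after the most upstream start, were matched for 38 of the 45 genes and searched on both strands for these letters. The genes not matched were Ccna2, Cdc25c, Aurkb, Incenp, Tpx2, Kif20a and Smc4. TTTGAA was in 30 of the 38 windows (78.9%), against 18.2% of the 27025 windows of all genes, and CCAAT in 28 (73.7%), against 38.0%. TTTAAA, which reads the same on both strands, was in 11 (28.9%), against 13.1%. CCAAT together with either form of the CHR was in 27 (71.1%), against 11%, and 20 windows (52.6%) held CCAAT 2 or more times, against 12.1%. The letters GCGGGAA of an E2F site were in 2 windows (5.26%), against 4.67%. These shares did not all hold for the further mitosis genes listed below, of which 52 windows were matched. There TTTGAA was in 46.2%, CCAAT in 63.5%, TTTAAA in 11.5% and GCGGGAA in 15.4%. CCAAT with a CHR was in 14 of the 17 matched genes that fell and in 13 of the 21 others. A match of letters is a description and not a binding site.

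The stretches of 140 bases that end upstream of the first annotated exon are shown for the 6 genes with the smallest p whose stretch held a searched motif. They show a part of the letters that the counts above rest on, since those counts are of the whole windows. Of the 6, Cdc20 and Cdk1 held TTTGAA in the stretch and the other 4 held CCAAT alone there. In the whole window Spc25, Ube2c and Ccnb2 also held TTTGAA, and Ccnb1 held TTTAAA. Each is written 5′ to 3′ on the gene's own strand, with CCAAT (or ATTGG, its reverse complement) and TTTGAA in capitals.
Ccnb1 promoter (chr13:100786571-100786710, minus strand): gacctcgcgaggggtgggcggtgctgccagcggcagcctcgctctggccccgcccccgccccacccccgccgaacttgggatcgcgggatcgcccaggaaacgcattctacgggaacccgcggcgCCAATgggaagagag
Spc25 promoter (chr2:69206214-69206353, minus strand): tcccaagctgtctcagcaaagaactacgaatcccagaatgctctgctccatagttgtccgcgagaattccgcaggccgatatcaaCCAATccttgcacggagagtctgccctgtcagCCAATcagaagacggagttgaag
Ube2c promoter (chr2:164769758-164769897, plus strand): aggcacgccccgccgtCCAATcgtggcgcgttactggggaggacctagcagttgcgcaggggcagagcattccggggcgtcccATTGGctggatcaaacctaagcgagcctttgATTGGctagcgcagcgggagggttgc
Cdc20 promoter (chr4:118437353-118437492, minus strand): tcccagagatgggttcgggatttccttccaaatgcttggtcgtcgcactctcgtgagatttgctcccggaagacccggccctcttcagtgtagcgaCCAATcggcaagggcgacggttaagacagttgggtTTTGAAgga
Cdk1 promoter (chr10:69352939-69353078, minus strand): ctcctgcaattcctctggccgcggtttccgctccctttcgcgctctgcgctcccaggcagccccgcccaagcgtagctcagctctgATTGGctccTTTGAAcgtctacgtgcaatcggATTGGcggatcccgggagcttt
Ccnb2 promoter (chr9:70421555-70421694, minus strand): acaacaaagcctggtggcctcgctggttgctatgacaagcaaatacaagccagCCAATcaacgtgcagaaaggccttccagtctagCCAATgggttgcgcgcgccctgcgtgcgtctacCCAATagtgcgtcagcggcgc
Ccnb2 held 3 CCAAT boxes in a row, whose first letters lie 87, 54 and 21 bases before the RefSeq start. In Cdc20 a CCAAT box at 53 bases was followed by TTTGAA at 18 bases. Cdk1 held TTTGAA at 71 bases between ATTGG at 80 and 48 bases. In Ube2c a CCAAT box at 155 bases was followed by ATTGG at 88 and 57 bases, and Spc25 held CCAAT at 55 and 23 bases. The stretch of Ccnb1 held 1 CCAAT box, at 99 bases.

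The counts by role given from here on stand beside 9.94% of all genes tested that fell. Among genes at the level of the mitosis genes 17.3% fell, and differences between the roles were not tested. Of the 8 genes for the kinases and cyclins of mitotic entry, 7 fell, and 4 of them also passed with TMM factors. Ccnb1 (chromosome 13, 100778650 to 100786570 on mm10, minus strand) encodes cyclin B1, the main partner of Cdk1. It had 8279 and 7777 normalized counts in controls 1 and 2 against 6099 and 6217 in Ctcf-null 1 and 2 (log2 change -0.38, SE 0.06, limma adjusted p = 4.9e-04). Both Ctcf-null libraries lay below both controls, as in 7.77% of all genes tested. Ccnb2, the second B-type cyclin, was at 1589 and 3091 in the controls against 1274 and 2452 in the Ctcf-null libraries, a fall within each pair although the groups overlapped (log2 change -0.33, SE 0.07). Ccna2, cyclin A2, which acts from S phase to early mitosis, was at 455 and 3152 in the controls against 392 and 2206 in the Ctcf-null libraries (log2 change -0.37, SE 0.09). Cdk1, the kinase itself, was at 3473 and 5380 in the controls against 2792 and 4389 in the Ctcf-null libraries (log2 change -0.30, SE 0.07). These 3 genes were each lower in both pairs, with the second pair higher throughout.

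Cdc25c, a phosphatase that removes the inhibitory phosphates of Cdk1, was at 573 and 1241 in the controls against 453 and 994 in the Ctcf-null libraries. Aurka, the spindle pole kinase, was at 1870.5 and 2234 in the controls against 1536 and 1824 in the Ctcf-null libraries, which did not overlap. Plk1, the polo kinase of mitotic entry and spindle function, was at 499 and 2737 in the controls against 387 and 2301 in the Ctcf-null libraries. Their log2 fold changes were -0.33, -0.29 and -0.31, with SE of 0.09, 0.07 and 0.08, and they fell on the deposited scaling but did not pass with TMM factors (limma adjusted p = 0.068, 0.058 and 0.072). Plk4, the kinase that starts centriole duplication and belongs to the S phase side of the cycle, was the exception of the group, at 371 and 779 in the controls against 363 and 722 in the Ctcf-null libraries (log2 change -0.07, SE 0.10, adjusted p = 0.70).

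The chromosomal passenger complex corrects faulty attachments at the inner centromere and then moves to the spindle midzone, and all 4 of its genes fell. Birc5, survivin, was at 1840.3 and 2987 normalized counts in the controls against 1365 and 2453 in the Ctcf-null libraries (log2 change -0.36, SE 0.07, limma adjusted p = 0.0035). Cdca8, borealin, was at 2139 and 5518 in the controls against 1793 and 4462 in the Ctcf-null libraries (log2 change -0.28, SE 0.07). These were the 2 genes of the complex that also passed with TMM factors. Aurkb, the complex's kinase, was at 1262 and 2607 in the controls against 977 and 2277 in the Ctcf-null libraries (log2 change -0.28, SE 0.08). Incenp, its scaffold, was at 281 and 1634 in the controls against 238 and 1253 in the Ctcf-null libraries (log2 change -0.31, SE 0.10). In each of the 4 the Ctcf-null library was the lower in both pairs, and the groups overlapped, with the second pair higher.

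Among the 7 genes of the spindle checkpoint and of anaphase, the 2 that act with the anaphase-promoting complex fell and the 5 checkpoint genes did not pass. Cdc20 (chromosome 4, 118432901 to 118437352, minus strand) was at 398 and 3981 normalized counts in the controls against 320.3 and 2755 in the Ctcf-null libraries (log2 change -0.42, SE 0.09, limma adjusted p = 0.0029), the largest log2 difference of the 45 genes. Ube2c (chromosome 2, 164769898 to 164778822, plus strand) was at 1484 and 10415 in the controls against 1159 and 7911 in the Ctcf-null libraries (log2 change -0.38, SE 0.07, adjusted p = 9.4e-04). Both were lower in each pair, with pair values of -0.36 and -0.40 for Ube2c and -0.31 and -0.53 for Cdc20.

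The checkpoint genes had smaller differences. Bub1b, BubR1, which binds Cdc20 in the mitotic checkpoint complex, was at 3065 and 1902 in the controls against 2402 and 1839 in the Ctcf-null libraries (log2 change -0.20, SE 0.08). Bub1, its kinase relative, had -0.17 (SE 0.09) and Bub3, the partner of both, -0.13 (SE 0.06). For these 3 genes the difference in the second pair was small, at -0.05, -0.04 and -0.04. Ttk, the kinase Mps1 that starts the checkpoint signal, had -0.09 (SE 0.09) and Mad2l1, the Mad2 protein that holds Cdc20, -0.05 (SE 0.08). The sign of Mad2l1 turned with TMM and upper-quartile factors and in edgeR, and that of Ttk with upper-quartile factors. That these 5 genes moved less than Cdc20 and Ube2c was not tested.

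Of the 6 centromere and kinetochore genes 3 fell. Spc25 (chromosome 2, 69193895 to 69206194, minus strand) was at 1569 and 4600.4 normalized counts in the controls against 1189 and 3483 in the Ctcf-null libraries, with the same ratio in both pairs (log2 change -0.40, SE 0.07, limma adjusted p = 8.7e-04). Ndc80, a subunit of the same complex, was at 853 and 1158 in the controls against 712 and 882 in the Ctcf-null libraries (log2 change -0.33, SE 0.09). Nuf2, its direct partner, did not pass, at 1100.2 and 1423 in the controls against 1003 and 1298 in the Ctcf-null libraries (log2 change -0.13, SE 0.08, adjusted p = 0.31). The 3 subunits of this complex had values from -0.13 to -0.40, a spread that was not tested. Cenpa, the centromeric histone H3 variant, was at 545 and 3677 in the controls against 477 and 2721 in the Ctcf-null libraries (log2 change -0.31, SE 0.08). Cenpe, a kinetochore motor, had nearly all its difference in the second pair, with 722 and 675 in the controls against 697 and 446 in the Ctcf-null libraries (pair values -0.05 and -0.60, adjusted p = 0.070). Cenpf, a large kinetochore and nuclear matrix protein, had pair values of 0.01 and -0.29 (adjusted p = 0.41).

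Of the 5 spindle motors 2 fell, and in both of them the Ctcf-null libraries lay below both controls, as in 7.77% of all genes tested. Kif2c, the microtubule-depolymerizing kinesin MCAK, was at 1920.3 and 1754 normalized counts in the controls against 1341 and 1504 in the Ctcf-null libraries (log2 change -0.37, SE 0.08, limma adjusted p = 0.0063). Kif11, the kinesin Eg5 that pushes the spindle poles apart, was at 1308 and 1291 in the controls against 1064 and 1055 in the Ctcf-null libraries (log2 change -0.29, SE 0.08). Its pair values were -0.30 and -0.29. Kif15, which can share the work of Kif11, was at 793 and 520.3 in the controls against 636 and 443 in the Ctcf-null libraries and did not pass (log2 change -0.27, SE 0.10, adjusted p = 0.069). Kif4, a chromosome-bound kinesin, differed in direction between the pairs, with 769 and 533 in the controls against 601 and 617 in the Ctcf-null libraries. Kif20b, a kinesin of the central spindle and of cytokinetic abscission, was at 425 and 224 in the controls against 407 and 237 in the Ctcf-null libraries (log2 change 0.01, SE 0.12, adjusted p = 0.97).

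Of the 4 spindle assembly genes 1 fell, Tpx2, which activates Aurka and nucleates microtubules near chromosomes. It was at 2576 and 2876 normalized counts in the controls against 2114 and 2494 in the Ctcf-null libraries, which did not overlap (log2 change -0.24, SE 0.07, limma adjusted p = 0.028, and 0.11 with TMM factors). Nusap1, which bundles spindle microtubules, was at 3090 and 3641 in the controls against 2741 and 3189 in the Ctcf-null libraries and did not pass (log2 change -0.18, SE 0.07, adjusted p = 0.087). Aspm, a spindle pole protein whose loss gives primary microcephaly, was at 539 and 330.2 in the controls against 479 and 273 in the Ctcf-null libraries (log2 change -0.22, SE 0.11, adjusted p = 0.20). Hmmr, a spindle-associated hyaluronan receptor, had -0.14 (SE 0.09). All 4 genes were lower in both pairs.

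Of the 5 cytokinesis genes 1 fell. Prc1, which bundles antiparallel microtubules of the midzone, was at 4302 and 3029 normalized counts in the controls against 3202 and 2610 in the Ctcf-null libraries (log2 change -0.32, SE 0.07, limma adjusted p = 0.0061). Kif20a, a kinesin that brings the passenger complex to the midzone, was at 2822 and 1685 in the controls against 2152 and 1598 in the Ctcf-null libraries (log2 change -0.23, SE 0.08, adjusted p = 0.068). Ect2, which activates RhoA at the cleavage furrow, had -0.16 (SE 0.09) and Kif23, of the centralspindlin complex, -0.07 (SE 0.08). Anln, anillin, a scaffold of the contractile ring, was at 379 and 311 in the controls against 350.0 and 355 in the Ctcf-null libraries. It was lower in the first pair and higher in the second (log2 change 0.04, SE 0.12, adjusted p = 0.88).

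Of the 6 genes for chromosome structure and the proliferation marker, 3 fell. Smc4, a core condensin subunit, was at 1106 and 2320.2 normalized counts in the controls against 966 and 1605 in the Ctcf-null libraries (log2 change -0.36, SE 0.09, limma adjusted p = 0.0095). Ncapg, of condensin I, was at 1061 and 1108 in the controls against 868 and 909 in the Ctcf-null libraries, which did not overlap (log2 change -0.29, SE 0.08). Top2a, the topoisomerase that untangles chromatids, was at 8605 and 3619 in the controls against 6637 and 3303 in the Ctcf-null libraries (log2 change -0.25, SE 0.07). Of these, Smc4 also passed with TMM factors. Smc2, which forms the condensin core with Smc4, had -0.15 (SE 0.08, adjusted p = 0.23), and Ncapd2 was at 4150.1 and 3142 in the controls against 3408 and 2935 in the Ctcf-null libraries (log2 change -0.19, SE 0.07, adjusted p = 0.085). Mki67, which encodes the widely used proliferation marker Ki-67 and coats mitotic chromosomes, was at 2216 and 1063 in the controls against 1940.3 and 943 in the Ctcf-null libraries. It was lower in both pairs, with pair values of -0.19 and -0.17, and did not pass (adjusted p = 0.13).

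**Figure D3:**
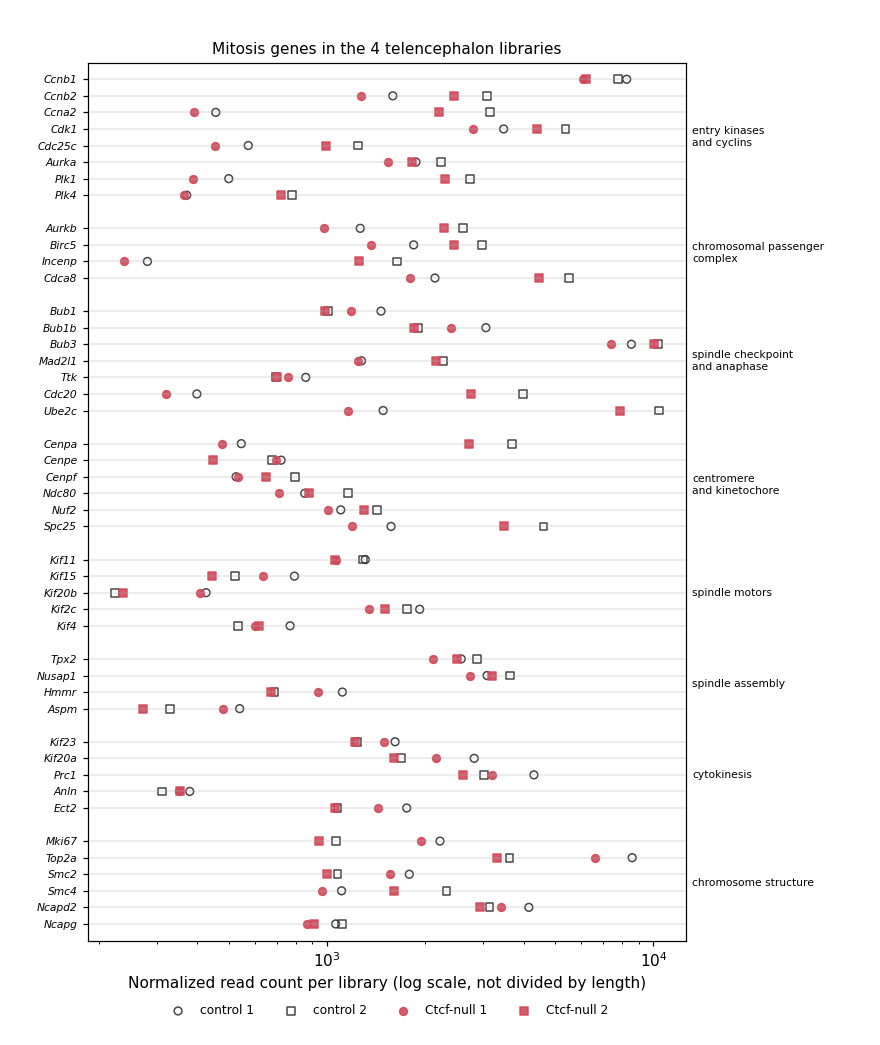
Normalized read counts of the 45 mitosis genes in each library, on a log axis and without division by gene length, so levels compare between libraries within a row only. In most rows the Ctcf-null symbol lies left of the control symbol of the same shape (40 of 45 genes in both pairs), while circles (first pair) and squares (second pair) are often further apart than the genotypes.

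Both pairs showed the lower levels, and they ranked the genes differently. In the first pair 44 of the 45 genes were lower in the Ctcf-null library and in the second 41, and 40 were lower in both, against 43.0% of all genes tested. The median was -0.28 in the first pair, where that of all genes was -0.06, and -0.22 in the second, where that of all genes was -0.08. Between the pairs' log2 values, r was 0.12 across the 45 genes and 0.45 across all genes tested. These are across genes, which are not independent replicates, and the libraries of a pair enter every point. In 6 genes both Ctcf-null libraries lay below both controls (Ccnb1, Kif2c, Aurka, Kif11, Tpx2 and Ncapg), and 7.77% of all genes tested had that pattern.

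**Figure D4:**
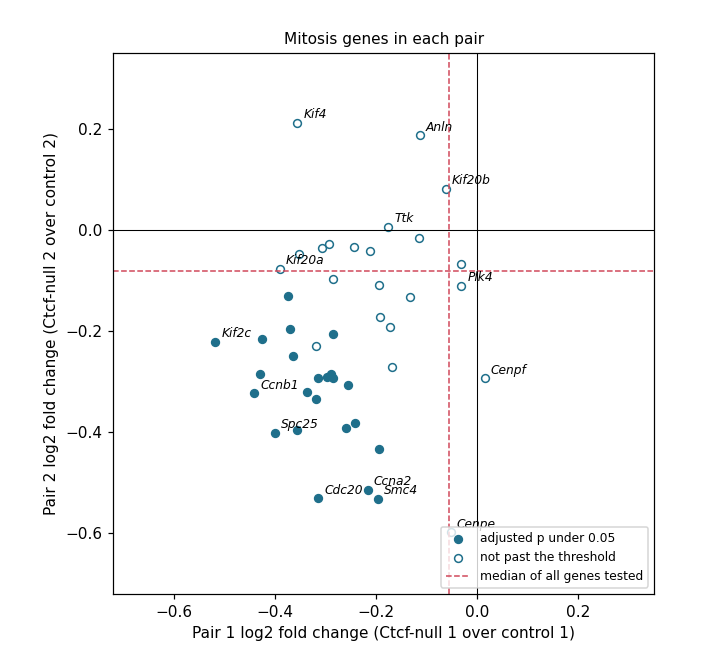
Log2 fold change of each mitosis gene in the first pair (horizontal axis) and in the second (vertical axis), filled where the limma adjusted p was under 0.05. The 40 genes in the lower left field were lower in both pairs, and Cenpe, Cenpf, Kif4, Anln, Ttk and Kif20b lie at its edges or outside it.

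Levels differed more between the pairs than between the genotypes. The median absolute log2 difference of the 45 genes was 0.69 between controls 2 and 1 and 0.27 between genotypes. In control 2, 12 of the genes were at 2-fold or more of their level in control 1, as were 24.8% of all genes tested. They were Cdc20 (9.99-fold), Ube2c (7.02-fold), Ccna2 (6.92-fold), Cenpa (6.74-fold), Incenp (5.81-fold), Plk1 (5.48-fold), Spc25, Cdca8, Cdc25c, Plk4, Smc4 and Aurkb. Of these 12, 10 were also at 2-fold or more in Ctcf-null 2 over Ctcf-null 1, among them Cdc20 at 8.60-fold and Ube2c at 6.83-fold, while Plk4 was at 1.99-fold and Smc4 at 1.66-fold. In the other direction Top2a was 2.38-fold and Mki67 2.08-fold higher in control 1, and 2.01-fold and 2.06-fold higher in Ctcf-null 1. The direction of the pair difference was the same in both genotypes for 41 of the 45 genes. The sources used here do not give what sets the pairs apart.

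The pair difference went with the base composition of the transcripts. Across the 45 genes the log2 ratio of control 2 to control 1 correlated with the GC content of the longest annotated transcript at r = 0.49, and across the 21750 tested genes with an annotated transcript at r = 0.37. The 9 mitosis genes with a GC content of 50% or more had a median log2 ratio of 1.05, and the 36 others of 0.02. With transcript length, from 1531 bases (Ccnb2) to 11130 (Cenpf), the ratio correlated at r = -0.50 among the mitosis genes and at 0.01 among all. The genotype difference also went with GC content and with length. With GC content it correlated at r = -0.34 among the mitosis genes and at -0.13 among all. Its median was -0.31 in the 9 mitosis genes of 50% GC or more and -0.24 in the 36 others. All tested genes in these classes had medians of -0.11 and -0.04. All 8 mitosis genes under 2500 bases fell, 14 of 29 between 2500 and 5000 bases, and 1 of 8 over 5000 bases (Top2a), and the medians were -0.35, -0.24 and -0.17. Over all tested genes in the same classes 12.2%, 9.28% and 5.88% fell, with medians of -0.12, -0.06 and -0.01. With each library corrected for GC content and length, 24 of the 45 genes passed, all lower (8.64% of all genes were lower and passed, 4.64% higher), 22 of them among the 23 above, and the median was -0.25, against -0.04 for all genes. The genes gained were Kif15 and Cenpe and the gene lost was Incenp (limma adjusted p = 0.094).

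**Figure D5:**
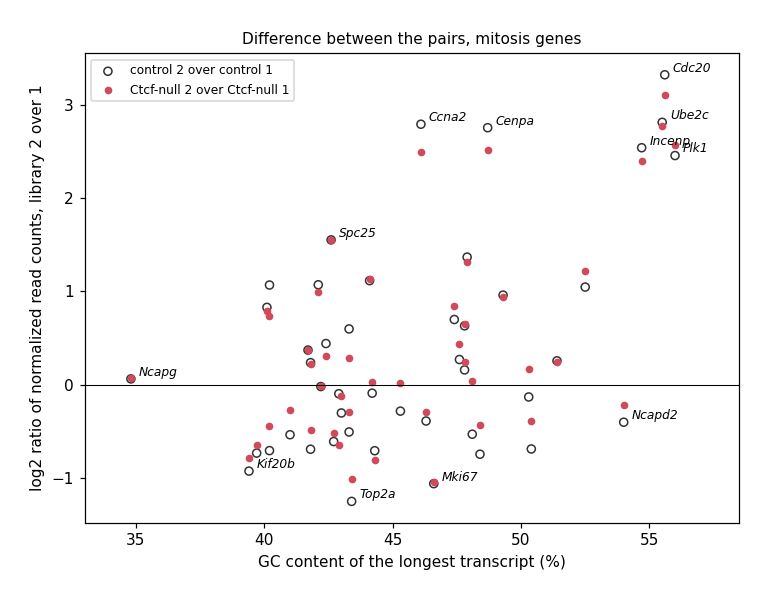
Log2 ratio of normalized read counts between the libraries of the second and the first pair, against the GC content of the longest transcript, for the 45 mitosis genes in controls (open) and Ctcf-null libraries (filled). Open and filled points of a gene lie close together, and Cdc20, Ube2c, Incenp and Plk1, at the right, lie above 2, with Ncapd2 near them in GC content but below 0. Ccna2 and Cenpa, at 46.1% and 48.7% GC, also lie above 2, and Bub1b, at 50.4%, lies below 0.

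Per kilobase of the longest transcript, the highest mean levels over the 4 libraries were those of Ccnb1 (2850 normalized counts per kilobase), Ube2c (2393) and Bub3 (2260). Ube2c ranged from 529 to 4754 per kilobase and so overlapped the ranges of Ccnb1 (2450 to 3326) and Bub3 (1840 to 2570), and the order of these 3 is not settled by 4 libraries. Spc25 (mean 1450, range 636 to 2461) and Ccnb2 (mean 1372, range 832 to 2019) overlapped each other and Bub3, and Top2a was above both in the first pair (1648 and 1271) and below both in the second (693 and 633). The lowest were Aspm (41.1), Cenpf (56.2), Kif20b (58.1), Anln (75.7) and Cenpe (80.3), whose ranges also overlapped between neighbours. The fewest reads of any of the 45 genes in a library were 179 and the most 10450.

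Some values may hold reads of other genes, since neither strand nor the counting rule is given. Exons of 13 of the 45 genes overlap those of another annotated gene. The longest overlap was that of Kif20a with Cdc23 on the opposite strand (1271 bases, 29.3% of its exon bases), where Cdc23 had a log2 fold change of -0.17 (SE 0.07, limma adjusted p = 0.11). Ube2c overlaps Tnnc2 over 592 bases, and Tnnc2 had 0 reads in every library. Of the 32 genes without such an overlap 14 fell, and their median was -0.23. Ccnb2-ps, listed as a pseudogene of Ccnb2, rose, with 107 and 134 normalized counts in the controls against 163 and 183 in the Ctcf-null ones (log2 change 0.53, SE 0.16, adjusted p = 0.030), so the values of Ccnb2 are uncertain by what the 2 share.

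The counts for other genes of the cell cycle stand beside 9.94% of all genes that fell, and 17.3% of those at the level of the mitosis genes, and most of these genes did not pass. Of 66 further mitosis genes 14 fell and 0 rose (7 with TMM and 5 with upper-quartile factors), with a median log2 fold change of -0.23. The largest falls were those of Knstrn, a kinetochore and spindle protein, whose controls had 624 and 1914 normalized counts and the Ctcf-null libraries 412 and 1455 (log2 change -0.50, SE 0.09, limma adjusted p = 9.6e-04), and Cenpm, a subunit of the inner kinetochore, at -0.42 (SE 0.09). Of 17 genes of the anaphase-promoting complex and its partners 4 fell and 0 rose, with a median of -0.19. With TMM factors 1 fell and 0 rose, and with upper-quartile factors also 1 and 0. Ube2s, the enzyme that extends the ubiquitin chains begun by Ube2c, was at 248 and 6859 in the controls against 177 and 4766 in the Ctcf-null libraries (log2 change -0.51, SE 0.08, adjusted p = 3.7e-04). Fzr1, the activator that follows Cdc20, had -0.30 (SE 0.08) and did not pass with TMM factors (adjusted p = 0.082). Both were lower in each pair, and Ube2s differed the more between pairs.

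Of 22 genes for transcription factors of the cell cycle, 4 fell and 1 rose (2 and 1 with TMM, 0 and 1 with upper-quartile factors). E2f3, an E2F activator of S phase genes, rose, with 265 and 269 normalized counts in the controls against 400.2 and 474 (log2 change 0.70, SE 0.12, limma adjusted p = 4.4e-04), and the groups did not overlap. E2f4 and E2f5, both E2F repressors, had -0.36 (SE 0.08) and -0.40 (SE 0.13), the latter not past the threshold with TMM factors (adjusted p = 0.12). With upper-quartile factors neither passed (limma adjusted p = 0.060 and 0.17). E2f7 and E2f8 of the same list, at -0.19 and -0.34, did not pass on the deposited scaling (limma adjusted p = 0.33 and 0.078). Of 27 DNA replication genes 9 fell and 0 rose, with a median of -0.22 and the largest falls in Rrm2, of ribonucleotide reductase (log2 change -1.41, SE 0.10), and Rfc3, of the clamp loader (-0.72, SE 0.08). Of 9 G1 cyclin and kinase genes 1 fell, Cdk4 (-0.24, SE 0.06), which did not pass with TMM factors.

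The cyclin-dependent kinase inhibitors went both ways, with 2 of 6 tested genes up and 2 down, where 3.62% of all genes rose and 9.94% fell. Cdkn2c, p18, was at 60.5 and 354 normalized counts in the controls against 186 and 564 in the Ctcf-null libraries (log2 change 1.14, SE 0.17, limma adjusted p = 2.0e-04). Cdkn1a, p21, a p53 target that blocks cyclin-dependent kinases, was at 94.3 and 703 in the controls against 194 and 946 in the Ctcf-null libraries (log2 change 0.73, SE 0.14, adjusted p = 0.0013). Both rose in each pair. Cdkn2d, p19, fell by 0.53 on the log2 scale (SE 0.07) and Cdkn1b, p27, by 0.34 (SE 0.11), the latter not with TMM factors (adjusted p = 0.13).

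Among markers of the dividing cell types, most intermediate progenitor genes fell on the deposited scaling, while most apical and ventral progenitor genes did not pass. Most genes of each of these lists lay below 0. Over all genes tested 9.94% fell and 3.62% rose, and 17.3% fell among genes at the level of the mitosis genes. The part of these cell types in the result was not tested. Of 15 apical progenitor genes 3 fell and 0 rose (3 and 1 with TMM factors), with a median of -0.17, led by Lhx2 (log2 change -0.65, SE 0.08) and Fabp7 (-0.61, SE 0.06). Of the 15, 12 lay below 0, and Pax6 (0.21, SE 0.07) passed as higher with TMM factors (limma adjusted p = 0.032). The summed level of the list was 56451 and 84875 normalized counts in the controls against 41456 and 69487 in the Ctcf-null libraries. Fabp7 alone made up 35904 and 32681 of these in the controls and 22697 and 22196 in the Ctcf-null libraries. Without it the sums were 20547 and 52194 in the controls against 18758 and 47291. Of 9 intermediate progenitor genes 7 fell and 0 rose (4 and 0 with TMM and with upper-quartile factors), with a median of -0.38. After the correction for GC content and length 4 passed as lower, and the median of the 9 was -0.23. On the deposited scaling the largest falls were those of Sstr2 (-1.57, SE 0.09) and Neurod4 (-1.24, SE 0.17). The sums of the intermediate progenitor list were 15460.3 and 29406 in the controls against 11978 and 19993 in the Ctcf-null libraries. Elavl2 (log2 change -0.07) made up 41.9% and 14.9% of them in the controls and 52.1% and 20.8% in the Ctcf-null libraries. Without Elavl2 the sums were 8983 and 25018 in the controls against 5740 and 15844.5. Of 7 ventral progenitor genes 2 fell, Dlx2 (-1.10, SE 0.20) and Dlx1 (-0.45, SE 0.08). The median of the 7 was -0.54, 6 of them lay below 0, and the pair medians were -0.03 and -1.25. Their sums were 1468.5 and 9149.5 in the controls against 1262 and 5140.2 in the Ctcf-null libraries. Dlx1 made up 62.9% to 75.0% of these sums. Neuron genes went both ways, 4 of 13 down and 2 up, with a median of -0.05 that turned to 0.01 with TMM and 0.06 with upper-quartile factors.

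Markers of other cells that could be in the dissected tissue did not share 1 direction. Their counts stand beside 9.94% of all genes that fell and 3.62% that rose. Of 10 microglia genes 0 fell and 1 rose, C1qb (log2 change 0.47, SE 0.11), with a median of 0.27 and sums of 1710 and 3714 normalized counts in the controls against 2107 and 4442 in the Ctcf-null libraries. Of 8 choroid plexus genes 3 rose and 0 fell, among them Sostdc1 (0.55, SE 0.14) and Otx2 (0.48, SE 0.12), with sums of 73866 and 25494 in the controls against 96611 and 36891 in the Ctcf-null libraries, of which Ttr made up 93.8% to 97.8%. Of 8 endothelial genes 1 fell, Esam (-0.35, SE 0.09), with sums of 2955 and 6707 against 2449 and 6068, and of 9 mesenchyme and pericyte genes 0 fell and 0 rose, with sums of 5052 and 9588.5 against 4824 and 9939. None of the 11 erythroid genes passed in limma, and their sums were 1344437 and 576143 in the controls against 924935 and 626813 in the Ctcf-null libraries, lower in the first pair and higher in the second. No marker of these 9 cell type lists was at 0 in every library.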

How the data were processed

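RNA of the telencephalon at embryonic day 14 was sequenced in 2 control and 2 Ctcf-null libraries. The submitters' processing notes name the aligner STAR 2.5.3, DESeq2 and the genome build mm10. Gene counter and annotation were not given in the sources used here. The authors deposited, per the file headers, normalized read counts per gene and library, a signal not divided by length, and log2 fold changes per pair. The latter equal log2((Ctcf-null + 1)/(control + 1)) within 0.0080 and are not printed. Every nonzero value was a whole multiple of 1 step per library (100% within 0.0055), so whole reads were recovered.

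log2(value + 1) was fitted in limma 3.58.1 under R 4.3.3, with its trend option and the pair as a block, over the 21882 genes with a normalized count of at least 10 in at least 2 libraries. Tests were two-sided, with Benjamini-Hochberg adjustment over all genes tested and a threshold of 0.05. A fold change on this scale understates the change of low genes. The fit leaves 1 residual degree of freedom and borrows spread from all genes (16.4 prior degrees of freedom). The block was used because the design text speaks of pairs and the authors' table gives fold changes per pair. Taken as deviations from the group means, same-numbered libraries correlated at 0.926 across genes. edgeR 4.0.16 (quasi-likelihood, TMM) and DESeq2 1.42.0 on recovered reads were alternatives, with other scalings, pseudocounts and filters. Of these fits, limma with and without the block and edgeR with the block were run on simulated counts. The limma values were there scaled by the known library sizes, so the choice of scaling was not checked. DESeq2, the other scalings and the correction for GC content and length were not simulated.

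The mitosis genes and all lists were chosen with earlier results of these data known. Values in every library are given for the mitosis genes that passed, the 5 next by adjusted p and those above 0, with others added for their roles. From each other list up to 2 passing genes per direction are named, most of them by their log2 change. Positions, lengths and GC content are from GENCODE M21 (mm10), with 99.3% of gene identifiers matched without their version. The correction for GC content and length used splines with 5 degrees of freedom each and was chosen after seeing the data.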

Additional observations from a re-analysis of the deposited data

How the results depend on the processing

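The count of 23 mitosis genes that fell stayed within 1.5 times with pseudocounts of 0.1 (23) and 10 (25), without a filter (25), with a filter of 100 (23) and after the correction for GC content and length (24). It was 12 with TMM factors, 4 with upper-quartile factors, 13 in edgeR and 4 in DESeq2, all with the block. With no replicate block it was 0 in limma and 0 in edgeR, and leaving out each library in turn without the block it was 0 to 0. A lone library was there assumed to vary like the other group, and leaving a library out of the blocked fit leaves a single pair, with no test. In none of these fits did a mitosis gene rise. The median log2 fold change of -0.27 was -0.22 with TMM factors, -0.17 with upper-quartile factors, -0.22 in edgeR with the block and -0.215 without it, and -0.22 in the second pair alone, and it ranged from -0.321 to -0.126 as libraries were left out. Under upper-quartile factors Ttk (0.022), Kif23 (0.042), Plk4 (0.036), Mad2l1 (0.058) and Kif4 (0.035) turned sign. Mad2l1 turned with TMM factors (0.007), in edgeR with the block (0.007) and without it (0.002), and Kif20b after the GC and length correction (-0.053). None of these passed in either fit. Leaving out a library without the block sets unpaired libraries against each other, and 35 genes turned sign in at least 1 such fit, with log2 fold changes that ranged as follows: Anln -0.10 to 0.18, Aspm -0.62 to 0.18, Aurkb -0.89 to 0.33, Birc5 -0.78 to 0.065, Bub1 -0.44 to 0.096, Bub1b -0.54 to 0.14, Bub3 -0.35 to 0.093, Ccna2 -1.76 to 1.03, Ccnb2 -0.81 to 0.15, Cdc20 -2.08 to 1.24, Cdc25c -0.89 to 0.24, Cdca8 -0.96 to 0.40, Cdk1 -0.63 to 0.022, Cenpa -1.69 to 1.06, Cenpf -0.44 to 0.16, Ect2 -0.51 to 0.19, Hmmr -0.48 to 0.21, Incenp -1.58 to 0.95, Kif15 -0.58 to 0.029, Kif20a -0.61 to 0.14, Kif20b -0.45 to 0.47, Kif23 -0.26 to 0.13, Kif4 -0.34 to 0.19, Mad2l1 -0.46 to 0.36, Mki67 -0.71 to 0.35, Ncapd2 -0.39 to 0.009, Nuf2 -0.32 to 0.052, Plk1 -1.59 to 0.98, Plk4 -0.61 to 0.46, Smc2 -0.52 to 0.21, Smc4 -0.90 to 0.17, Spc25 -1.18 to 0.38, Top2a -0.88 to 0.37, Ttk -0.24 to 0.066, Ube2c -1.78 to 1.03. By construction, the difference between pairs enters the genotype difference in these fits. For the scalings and tools the cause was not tested.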
